A study of Rattus norvegicus with 16 samples.

Results

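The small leucine-rich proteoglycans are secreted matrix proteins, and 8 of their genes were followed here in rat brain: Bgn (biglycan), Dcn (decorin), Aspn (asporin), Fmod (fibromodulin), Lum (lumican), Prelp, Omd (osteomodulin) and Ogn (osteoglycin). They were taken by symbol, out of 15892 gene symbols that occur in both deposited expression tables, and Bgn and Fmod lead the set because the study's paper places them as hubs of its gene networks. Messenger RNA was sequenced after poly-A selection from the hypothalamus and the hippocampus of male Sprague Dawley rats that had received fructose for 6 weeks or, in the control groups, no treatment. The labels name 16 samples, 4 per region and treatment, and the tables hold 15 libraries: 3 fructose and 4 control for hypothalamus, and 4 fructose and 4 control for hippocampus. Fructose replicate 4 of hypothalamus was not analysed here. Whether each sample is a separate rat, and whether both regions came from the same rats, is not given in the labels, so p-values measure only the spread between these samples.

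The proteins of this family share a core of leucine-rich repeats that binds collagen fibrils and sets their diameter and spacing. Biglycan and decorin carry chondroitin or dermatan sulfate chains, while fibromodulin, lumican and osteomodulin can carry keratan sulfate. Several members bind TGF-beta, and soluble biglycan is known as a ligand of the innate immune receptors Tlr2 and Tlr4. In brain, fibroblasts of the meninges and of larger vessels are known as the main source of this fibrillar matrix, whereas the tissue between neurons is poor in it.

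Of the 8 genes, 5 had a mean of at least 1 FPKM (a level of mapped fragments scaled for transcript length and library size) in both tables, the level set for testing: Bgn, Dcn, Fmod, Lum and Prelp. All 3 of the others were at or near 0. Omd was listed at 0 in every library of both tables. Aspn was listed at 0 in every hippocampus library, and in hypothalamus its main locus had 0.342, 0.404 and 0.155 FPKM in fructose libraries, against 0.349, 0.421, 0.331 and 0.601 FPKM in controls. Ogn reached at most 0.126 FPKM in hypothalamus and had a single value above 0, of 0.0102 FPKM, in hippocampus. These 3 genes lie next to each other in the rat genome and each has 2 or 3 loci of the same symbol in the tables. Whether a 0 there was measured is not known from the tables. Col1a2, a chain of type I collagen, also has 2 loci and was listed at 0 in all 15 libraries, in which Col1a1 was detected. Npy, a neuropeptide gene of the hypothalamus, has 2 loci as well and was listed at 0 in every hypothalamus library but 1 fructose library, which had 0.0928 FPKM (both genes were chosen for mention after their values were seen). Of symbols with several loci, 22.0% in the hypothalamus table and 17.0% in the hippocampus table were listed at 0 in all libraries, against 15.2% and 15.6% of symbols with 1 locus.

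The promoter windows of Fmod and Lum are shown because Fmod is one of the hub genes and Lum is the member whose hypothalamus groups did not overlap. Both windows are from RefSeq on build GRCr8 and run from 250 bases before to 50 bases after the start of the gene, on the plus strand, at chr13:48045317-48045616 for Fmod and chr7:34245456-34245755 for Lum. Capitals mark the matches to the motifs searched.
Fmod: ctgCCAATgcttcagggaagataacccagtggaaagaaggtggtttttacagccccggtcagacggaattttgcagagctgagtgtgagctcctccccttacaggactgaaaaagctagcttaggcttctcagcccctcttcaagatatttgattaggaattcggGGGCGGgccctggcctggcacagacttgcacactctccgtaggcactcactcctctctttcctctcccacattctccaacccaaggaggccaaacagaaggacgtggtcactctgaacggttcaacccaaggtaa
Lum: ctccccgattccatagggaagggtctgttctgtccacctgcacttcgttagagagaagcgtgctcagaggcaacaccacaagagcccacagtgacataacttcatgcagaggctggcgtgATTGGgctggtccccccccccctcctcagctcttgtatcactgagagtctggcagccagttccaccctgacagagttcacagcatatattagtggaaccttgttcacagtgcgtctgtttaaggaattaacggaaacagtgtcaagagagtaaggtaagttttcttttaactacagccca
The motifs searched on both strands were the TATA box as TATAAA, the GC box as GGGCGG, the CCAAT box as CCAAT, the core of AP-1 sites as TGANTCA and a SMAD-binding element as CAGACA. Fmod holds GGGCGG from position -85 and CCAAT from position -247 relative to the start, and Lum holds CCAAT on the reverse strand, written as ATTGG, from position -130. Over all 33469 windows of the table, 33.1% hold GGGCGG, 37.5% hold CCAAT, 14.2% hold TATAAA, 7.33% hold TGANTCA and 21.1% hold CAGACA. GC content was 52.7% for Fmod and 50.7% for Lum, against a median of 51.7% over all windows. In this assembly Fmod lies beside Prelp, and Lum lies between Dcn and Kera.

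The libraries differ in ways that the groups do not explain. Replicate 1 of both treatments stood apart in each region: across loci, the replicate 1 libraries correlated with each other at 0.980 in hypothalamus and 0.985 in hippocampus, and with the remaining libraries at 0.880 to 0.909 and 0.840 to 0.896. The labels do not say what a replicate number stands for. The FPKM values of a library summed to 435105 to 492778 in hypothalamus and to 353703 to 402099 in hippocampus, and the tables hold no read counts, so depth is unknown. The region labels were checked against marker genes. The summed hypothalamus markers were 3877 to 7284 FPKM in fructose and 5122 to 9639 FPKM in control hypothalamus, against 11.4 to 36.0 FPKM in fructose and 8.67 to 19.4 FPKM in control hippocampus. The summed hippocampus markers differed less, at 236 to 409 FPKM in fructose and 244 to 351 FPKM in control hippocampus. In hypothalamus they were 81.3 to 114 FPKM in fructose and 92.2 to 124 FPKM in control libraries. The tables were normalized separately, so these levels are only set side by side.

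In hypothalamus, 5 of the 5 measured proteoglycan genes had lower mean FPKM in fructose than in control libraries. None passed the test, as against 0.00870% of the 11498 loci tested. Bgn, the biglycan gene, had 26.4, 18.0 and 60.8 FPKM in fructose libraries 1 to 3, against 50.6, 51.3, 83.3 and 112 FPKM in control libraries 1 to 4. Fructose replicate 3 lay above control replicates 1 and 2, so the groups overlapped. Bgn averaged 35.1 ± 22.7 FPKM in fructose (SD, n = 3) and 74.4 ± 29.5 FPKM in control (SD, n = 4), a log2 fold change of -1.16 (SE 0.44; adjusted p = 0.9998, limma). Its unadjusted p was 0.0325 in limma's moderated test. All fold changes are differences of log2(FPKM + 1), which understates the change of genes with low FPKM, and the threshold is a Benjamini-Hochberg adjusted p of 0.05 over all loci tested.

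Fmod, whose protein binds type I collagen and delays fibril assembly, had 9.005, 8.97 and 21.8 FPKM in fructose hypothalamus, against 16.9, 18.7, 23.9 and 31.1 FPKM in controls. Again fructose replicate 3 lay among the controls, while the other fructose libraries were below all of them. The means were 13.3 ± 7.39 FPKM in fructose (SD, n = 3) and 22.7 ± 6.37 FPKM in control (SD, n = 4), with a log2 fold change of -0.81 (SE 0.34; adjusted p = 0.9998, limma). Without fructose replicate 3 the log2 fold changes became -1.64 for Bgn, -1.21 for Fmod and -1.31 for Dcn, with adjusted p = 0.776 for each in limma. Without fructose replicate 2 they became -0.79 for Bgn, -0.61 for Fmod and -0.57 for Dcn, with unadjusted p-values of 0.124, 0.158 and 0.218 in the same test.

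Lum, whose protein orders collagen in transparent and dense connective tissue, was the only member with separate groups in hypothalamus. It had 7.41, 3.43 and 8.05 FPKM in fructose libraries, against 13.4, 11.4, 14.9 and 13.1 FPKM in controls, so every fructose value lay below every control value. The means were 6.30 ± 2.4999 FPKM in fructose (SD, n = 3) and 13.2 ± 1.46 FPKM in control (SD, n = 4), and the log2 fold change was -1.02 (SE 0.26; adjusted p = 0.9998, limma). Of all loci tested in hypothalamus, 1.58% had every fructose value below every control value and 3.33% had groups that did not overlap in either direction. The Lum log2 fold change was between -1.21 and -0.70 when each library was left out in turn.

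Dcn, which binds collagen and TGF-beta and is the closest relative of Bgn, had 24.97, 22.1 and 63.5 FPKM in fructose hypothalamus, against 49.9, 44.5, 68.4 and 82.8 FPKM in controls. Its groups overlapped through fructose replicate 3, and the log2 fold change was -0.84 (SE 0.39; adjusted p = 0.9998, limma). Prelp, a proteoglycan found at basement membranes, had 18.4, 38.8 and 65.7 FPKM in fructose hypothalamus, against 23.7, 28.0, 59.6 and 66.4 FPKM in controls. The Prelp groups overlapped over most of their range, and the log2 fold change was -0.15 (SE 0.51; adjusted p = 0.9998, limma). The sign for Prelp turned to positive when fructose replicate 1 (0.32), control replicate 3 (0.03) or control replicate 4 (0.08) was left out.

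Of the 5 members, 3 had an unadjusted p under 0.05 with lower values in fructose hypothalamus (Bgn, Fmod and Lum), against 2.12% of all loci tested there. The members were chosen with earlier results of these data known, so this count is no test of the set. The only locus called after adjustment was Slc39a12, a zinc transporter gene. All 5 members had a negative log2 fold change, as did 48.5% of all loci, and their median was -0.84 against 0.01 over all loci. With the replicate number as a block, which leaves control replicate 4 without a partner, the adjusted p was 0.237 for Lum and 0.331 for Bgn in limma. Without the replicate 1 libraries the log2 fold changes were -1.21 for Bgn, -0.73 for Fmod, -0.73 for Dcn, -1.15 for Lum and 0.07 for Prelp. Replicate 1 has 1 library of each treatment per region, too few for a value of its own.

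**Figure D1:**
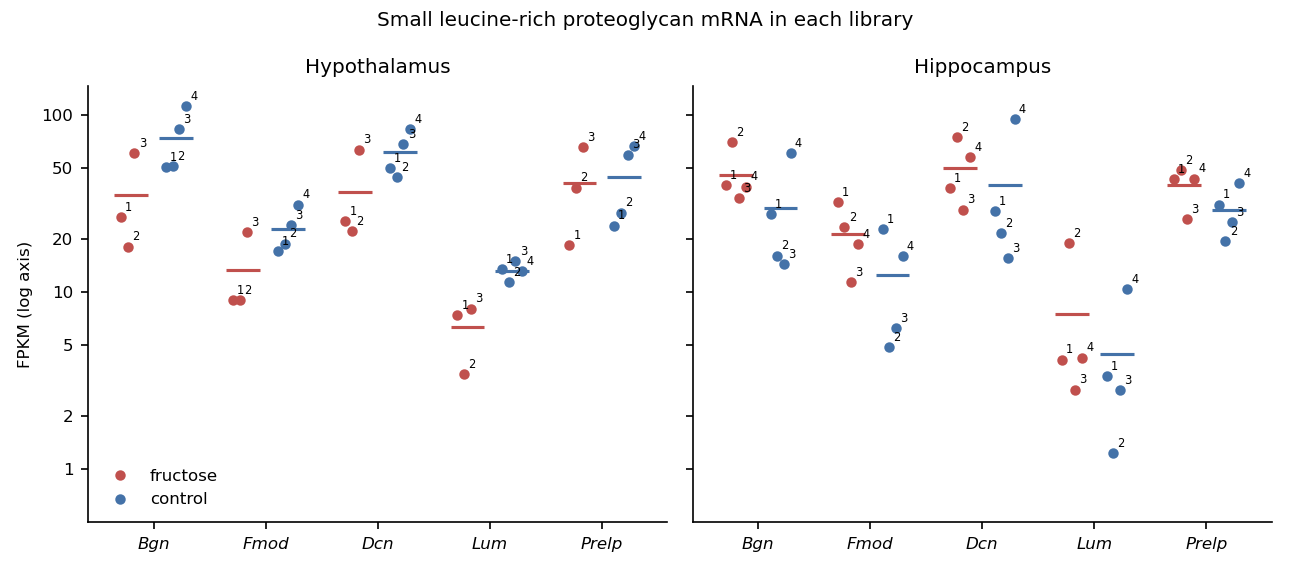
FPKM of the 5 measured proteoglycan genes in each library, on a log axis, for hypothalamus on the left and hippocampus on the right. Points are libraries, numbered by replicate, with fructose left of control, and lines are group means. In hypothalamus the Lum groups are separate, at 3.43 to 8.05 FPKM in fructose and 11.4 to 14.9 FPKM in control. All other pairs of groups overlap.

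In hippocampus the same 5 genes had higher mean FPKM in fructose than in control libraries, and their groups all overlapped. None passed the test, which 0% of the 11385 loci tested did. Bgn had 40.1, 70.0, 34.0 and 39.3 FPKM in fructose libraries 1 to 4, against 27.6, 16.05, 14.4 and 60.7 FPKM in control libraries 1 to 4. Control replicate 4 lay above all fructose libraries but replicate 2, while the other controls were below every fructose library. Bgn averaged 45.8 ± 16.3 FPKM in fructose and 29.7 ± 21.5 FPKM in control (SD, n = 4 each), a log2 fold change of 0.79 (SE 0.44; adjusted p = 0.9999, limma). Without control replicate 4 this was 1.20, with an unadjusted p of 0.00519 in limma's moderated test, and without control replicate 3 it was 0.53, with an unadjusted p of 0.265. Without fructose replicate 2 it was 0.57.

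Fmod had 32.1, 23.1, 11.3 and 18.6 FPKM at its main locus, XLOC_008027, in fructose hippocampus, against 22.6, 4.90, 6.21 and 15.9 FPKM in controls. Replicate 1 was the highest library of both treatments, and the groups overlapped. The means were 21.3 ± 8.69 FPKM in fructose and 12.4 ± 8.39 FPKM in control (SD, n = 4 each), with a log2 fold change of 0.88 (SE 0.49; adjusted p = 0.9999, limma). Without the replicate 1 libraries it was 1.01, with an unadjusted p of 0.0476 in limma's moderated test, and without control replicate 2 it was 0.56, with an unadjusted p of 0.268. A second hippocampus locus of the Fmod symbol, XLOC_008377, had 0, 18.8, 3.22 and 0 FPKM in fructose libraries, against 0.0978, 3.89, 0 and 7.93 FPKM in controls. It was listed at 0 in 3 of 8 libraries, and its log2 fold change was 0.20 (SE 1.10). The tables give no coordinates or strand, so reads that the loci might share cannot be placed, and with both loci summed the log2 fold change of Fmod was 0.85.

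Dcn had 38.7, 75.03, 29.2 and 57.7 FPKM in fructose hippocampus, against 28.6, 21.5, 15.4 and 94.1 FPKM in controls. The highest library was a control, replicate 4, and the other controls were below all fructose libraries. Its log2 fold change was 0.59 (SE 0.54; adjusted p = 0.9999, limma), and it was 1.12 without control replicate 4, 0.37 without fructose replicate 2 and 0.27 without control replicate 3.
Lum had 4.14, 18.8, 2.80 and 4.26 FPKM in fructose hippocampus, against 3.35, 1.22, 2.79 and 10.4 FPKM in controls. Fructose replicate 2 alone was far above the rest of its group, and without it the log2 fold change of 0.57 (SE 0.62; adjusted p = 0.9999, limma) became 0.05. It was 0.23 without control replicate 2 and 1.01 without control replicate 4. Prelp had 43.4, 48.9, 25.6 and 43.5 FPKM in fructose hippocampus, against 31.1, 19.3, 24.7 and 41.0 FPKM in controls. Of its fructose libraries, all but replicate 3 lay above every control, and the log2 fold change was 0.48 (SE 0.27; adjusted p = 0.9999, limma). Without control replicate 2 it was 0.30.

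All 5 members had a positive log2 fold change in hippocampus, as did 48.6% of all loci, with a median of 0.59 against 0.00 over all loci. No locus was called by limma, with 92 loci, or 0.808%, at an unadjusted p under 0.05. With group as the only term, no member had an unadjusted p under 0.05, and with the replicate number as a block Fmod had one, of 0.0228 in limma's test. No member had groups without overlap, and 0.668% of all loci had. Set side by side by replicate number, Fmod and Prelp were higher in the fructose library in 4 of 4 hippocampus pairs and Bgn, Dcn and Lum in 3 of 4. In hypothalamus, Bgn, Fmod, Dcn and Lum were lower in the fructose library in 3 of 3 pairs, and Prelp in 1 of 3. How often all loci do so was not counted, and the labels do not say that replicate numbers mark pairs.

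The make-up of the 5 measured genes was compared between libraries. The 5 genes together had 86.1 to 220 FPKM in fructose and 154 to 306 FPKM in control hypothalamus, and 103 to 236 FPKM in fructose and 62.9 to 222 FPKM in control hippocampus. In all 15 libraries Lum was the lowest of the 5 and Fmod the next lowest. Bgn was the highest, followed by Dcn and Prelp, in all 4 control hypothalamus libraries and in fructose replicate 1, while in fructose replicates 2 and 3 Prelp came first. Bgn made up 19.7% to 30.6% of the sum in fructose and 32.8% to 36.7% in control hypothalamus, and Prelp made up 21.4% to 42.5% in fructose and 15.3% to 23.8% in control. These shares were not tested. Fmod made up 20.3% in fructose replicate 1 and 19.98% in control replicate 1 of hippocampus, and 7.14% to 11.4% in the remaining hippocampus libraries, a split that follows the replicate number and not the treatment. The same libraries had the highest sums of choroid plexus markers, 5916 FPKM in fructose and 7652 FPKM in control. The remaining hippocampus libraries had 1205.5 to 4519 FPKM, and a link to the Fmod share was not tested.

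**Figure D2:**
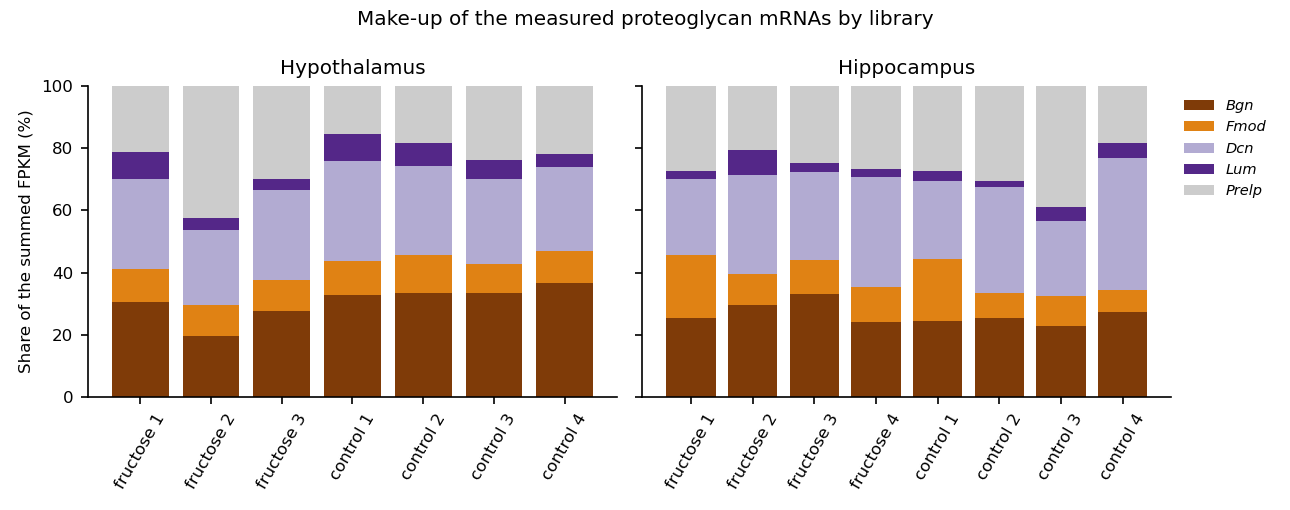
Share of Bgn, Fmod, Dcn, Lum and Prelp in their summed FPKM, in percent, as stacked bars for each library of hypothalamus (left) and hippocampus (right), with fructose libraries left of controls. Fmod is widest in the replicate 1 hippocampus libraries, at 20.3% in fructose and 19.98% in control, and Bgn takes 32.8% to 36.7% in control hypothalamus.

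The fructose-minus-control difference pointed in opposite directions in the regions. Whether both regions came from the same rats is not given, and the joint fit took all libraries as independent. The difference between regions was tested in that fit, over 9931 symbols. It was -1.95 for Bgn (SE 0.65; adjusted p = 0.9999, limma), with an unadjusted p of 0.00924 in limma's moderated test. For Fmod it was -1.69 (SE 0.63) and for Lum -1.59 (SE 0.73), with unadjusted p-values of 0.0176 and 0.0449 in the same test. For Dcn it was -1.43 (SE 0.70) and for Prelp -0.63 (SE 0.58), neither with an unadjusted p under 0.05. None of the 5 passed the adjusted threshold, and 0% of all symbols did, with 2.31% at an unadjusted p under 0.05 and 1.80% at such a p with a negative difference. All 5 differences were negative, as were 45.4% of all symbols, with a median of -1.59 against 0.02 over all symbols. Because the members were chosen with earlier results of these data known, these shares are no test of the set. Leaving out each library in turn gave -2.43 to -1.58 for Bgn, -2.08 to -1.37 for Fmod, -1.96 to -1.11 for Dcn and -2.04 to -1.07 for Lum. For Prelp it gave -1.05 without hypothalamus fructose replicate 3 to -0.16 without hypothalamus fructose replicate 1.

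Levels in the regions can only be set side by side, because the tables were normalized separately. In fructose libraries the ratio of mean FPKM in hypothalamus over hippocampus was 0.765 for Bgn, 0.623 for Fmod, 0.735 for Dcn, 0.840 for Lum and 1.02 for Prelp. In control libraries the same ratio was 2.51 for Bgn, 1.83 for Fmod, 1.54 for Dcn, 2.98 for Lum and 1.53 for Prelp. The lowest control hippocampus values, from replicates 2 and 3, were 16.05 and 14.4 FPKM for Bgn.

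**Figure D3:**
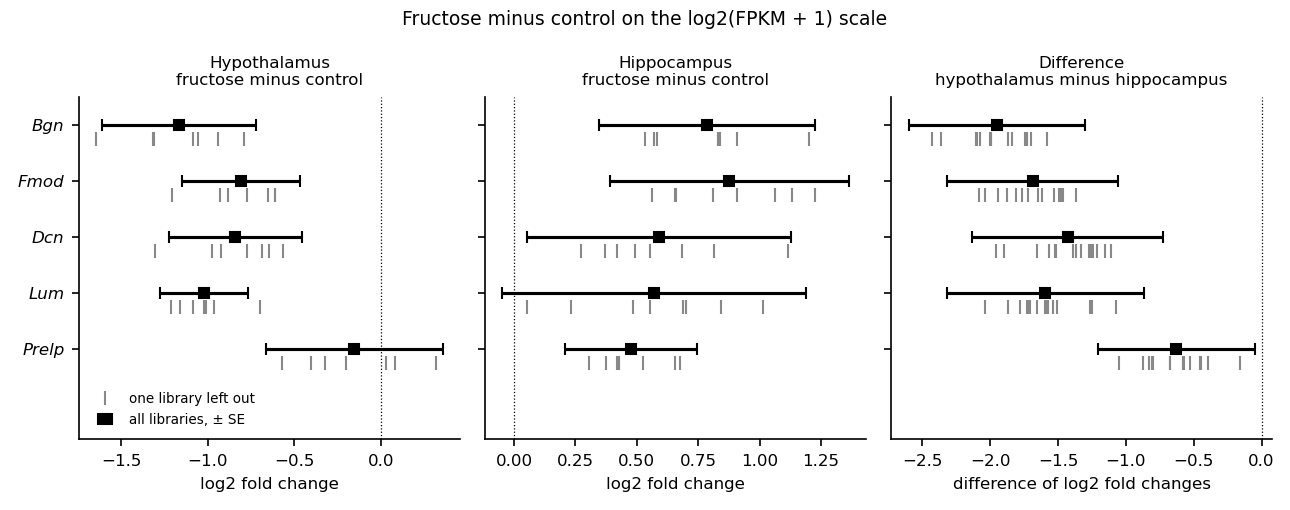
Log2 fold change of fructose over control, on the log2(FPKM + 1) scale, for the 5 measured genes in hypothalamus and hippocampus, and the difference of those fold changes (hypothalamus minus hippocampus). Squares with bars are the fit over all libraries with its SE, and grey ticks are fits with 1 library left out. For Bgn the squares are at -1.16, 0.79 and -1.95, and for Prelp in hypothalamus the ticks lie on both sides of 0.

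Markers of meningeal fibroblasts, chosen without any proteoglycan gene, had log2 fold changes of the same sign as the tested members in each region. Whether they varied with the members over the libraries was not tested. In hypothalamus the log2 fold change was negative for 15 of the 15 tested markers (median -1.38), and 14 of them had an unadjusted p under 0.05, against 3.14% of all loci. Their summed level was 109, 42.4 and 209 FPKM in fructose libraries, against 300, 218, 325 and 432 FPKM in controls, without overlap between the groups. In hippocampus 15 of 15 were positive, with a median of 0.73 and 0 under that p, and the sum was 255, 502, 147 and 203 FPKM in fructose libraries, against 170, 43.5, 34.3 and 377 FPKM in controls. Of the 18 markers listed, 16 were in each table and none of them was at 0 in all libraries. None passed the adjusted threshold in either region. Over all loci, 48.5% had a negative log2 fold change in hypothalamus and 48.6% a positive one in hippocampus. The list was chosen with earlier results of these data known, and markers of the same cell type in the same libraries are not independent. Their count at an unadjusted p under 0.05 is thus no test of the list.

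Highest among these markers in hypothalamus were Slc13a4, a sulfate transporter, and Slc6a20, a proline transporter. Slc13a4 averaged 18.8 ± 17.1 FPKM in fructose (SD, n = 3) and 61.1 ± 18.3 FPKM in control hypothalamus (SD, n = 4). Slc6a20 averaged 17.1 ± 10.6 FPKM in fructose (SD, n = 3) and 55.3 ± 10.3 FPKM in control hypothalamus (SD, n = 4). In hippocampus Slc6a20, at its main locus of 2, averaged 130 ± 77.3 FPKM in fructose and 74.1 ± 91.8 FPKM in control (SD, n = 4 each). Such bulk samples cannot tell apart fewer cells of a type and less RNA per cell, and the part of meningeal cells in the differences of the members was not tested.

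The highest and lowest libraries for the members were often those for the markers. In hippocampus, fructose replicate 2 and control replicate 4 had the highest marker sums and also the highest Bgn, Dcn and Lum values. Control replicates 2 and 3 had the lowest marker sums and the lowest values of every tested member. Fmod was highest in fructose replicate 1, and control replicate 4 ranked 5 for Fmod and 4 for Prelp. In hypothalamus, control replicate 4 had the highest marker sum and fructose replicate 2 the lowest. The same held for Bgn, Fmod and Dcn. Lum was highest in control replicate 3, and Prelp was lowest in fructose replicate 1. Relative to the marker sum, Bgn was at 0.241 to 0.425 in fructose and 0.169 to 0.260 in control hypothalamus, and at 0.139 to 0.231 in fructose and 0.161 to 0.420 in control hippocampus. The order of the groups was thus the reverse of that in Bgn FPKM by median: 0.291 in fructose and 0.246 in control hypothalamus, and 0.175 in fructose and 0.266 in control hippocampus. The highest ratios came from libraries with the lowest marker sums. Control hippocampus had 0.369 and 0.420 in replicates 2 and 3, but 0.163 and 0.161 in replicates 1 and 4. Fructose hypothalamus replicate 2 had 0.425. These ratios were not tested, and the sum rests most on the markers with the highest FPKM, such as Slc6a20. Mural cell markers, of pericytes and vascular smooth muscle, summed to 266 to 478 FPKM in fructose and 388 to 772 FPKM in control hypothalamus, and to 373 to 1197 FPKM in fructose and 160 to 1721 FPKM in control hippocampus.

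**Figure D4:**
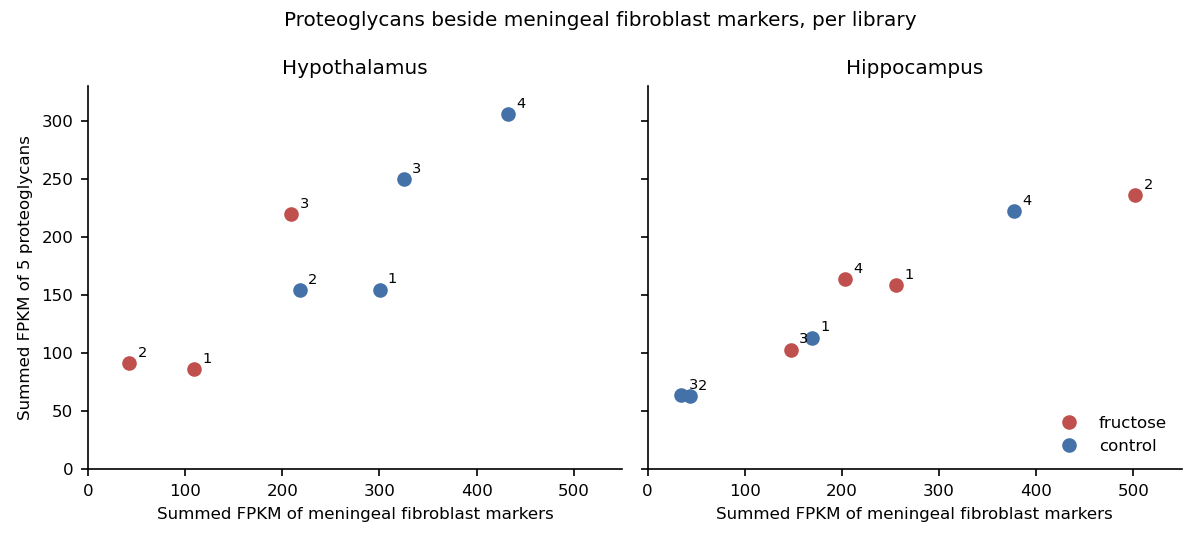
Summed FPKM of the 5 measured proteoglycan genes (vertical) against summed FPKM of meningeal fibroblast markers (horizontal) in each library, numbered by replicate, for hypothalamus (left) and hippocampus (right). In hypothalamus the fructose points lie at 42.4 to 209 FPKM of markers and the control points at 218 to 432. In hippocampus control replicates 2 and 3 lie lowest and fructose replicate 2 highest on both axes.

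Collagens, the partners that these proteoglycans bind, pointed mostly the same way without passing the test. In hypothalamus 7 of 8 tested collagen genes had a negative log2 fold change (median -0.54), as did 48.5% of all loci. In hippocampus 7 of 7 had a positive one (median 0.38), as did 48.6% of all loci. Col1a1, a chain of type I collagen, averaged 20.5 ± 18.1 FPKM in fructose (SD, n = 3) and 43.1 ± 19.1 FPKM in control hypothalamus (SD, n = 4), and 83.7 ± 71.5 FPKM in fructose and 26.0 ± 22.4 FPKM in control hippocampus (SD, n = 4 each). Col3a1, of type III collagen, averaged 9.77 ± 6.95 FPKM in fructose (SD, n = 3) and 21.4 ± 6.28 FPKM in control hypothalamus (SD, n = 4), and 16.1 ± 13.0 FPKM in fructose and 8.15 ± 9.49 FPKM in control hippocampus (SD, n = 4 each). Col6a2, of the microfibrillar type VI collagen, had log2 fold changes of -1.07 (SE 0.49) in hypothalamus and 0.68 (SE 0.55) in hippocampus.

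Of the enzymes and inhibitors that process collagen and proteoglycans, 12 of 12 had a negative log2 fold change in hypothalamus (median -0.39) and 8 of 13 a positive one in hippocampus (median 0.05). Timp3, a matrix-bound metalloproteinase inhibitor, averaged 62.6 ± 12.6 FPKM in fructose (SD, n = 3) and 76.0 ± 14.8 FPKM in control hypothalamus (SD, n = 4). The abundant inhibitor gene Timp2 averaged 372 ± 57.1 FPKM in fructose (SD, n = 3) and 389 ± 66.9 FPKM in control hypothalamus (SD, n = 4). Of TGF-beta ligands, receptors and targets, 10 of 13 were negative in hypothalamus (median -0.25) and 11 of 13 positive in hippocampus (median 0.12). Ltbp4, which tethers latent TGF-beta to the matrix, averaged 72.2 ± 21.8 FPKM in fructose (SD, n = 3) and 93.9 ± 18.1 FPKM in control hypothalamus (SD, n = 4). None of these genes passed the adjusted threshold in either region. Over all loci, 48.5% were negative in hypothalamus and 48.6% positive in hippocampus. Genes of a list in the same libraries are not independent, so these counts are no test of a list.

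Genes of the receptors that bind these proteoglycans and of the enzymes that build their sugar chains had medians near 0. Of 12 receptor genes, 7 were negative in hypothalamus (median -0.03) and 6 in hippocampus (median 0.02), and Lrp1, an endocytic receptor that takes up decorin, averaged 172 ± 38.6 FPKM in fructose (SD, n = 3) and 180 ± 32.7 FPKM in control hypothalamus (SD, n = 4). For chondroitin and dermatan sulfate synthesis, 12 of 19 genes were negative in hypothalamus (median -0.01) and 9 of 17 in hippocampus (median -0.01). For keratan sulfate synthesis, 4 of 7 were negative in hypothalamus (median -0.05) and 2 of 7 in hippocampus (median 0.01). Proteoglycans of brain matrix and cell surfaces had a median of 0.09 in hypothalamus, with 11 of 16 positive, and -0.02 in hippocampus, with 8 of 16 positive. Bcan (brevican), of the perineuronal matrix, averaged 117 ± 29.3 FPKM in fructose (SD, n = 3) and 102 ± 6.44 FPKM in control hypothalamus (SD, n = 4). The more distant leucine-rich relatives were low, with Tsku (tsukushi) at 5.15 ± 1.84 FPKM in fructose (SD, n = 3) and 4.96 ± 0.826 FPKM in control hypothalamus (SD, n = 4). None of these genes passed the adjusted threshold.

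**Figure D5:**
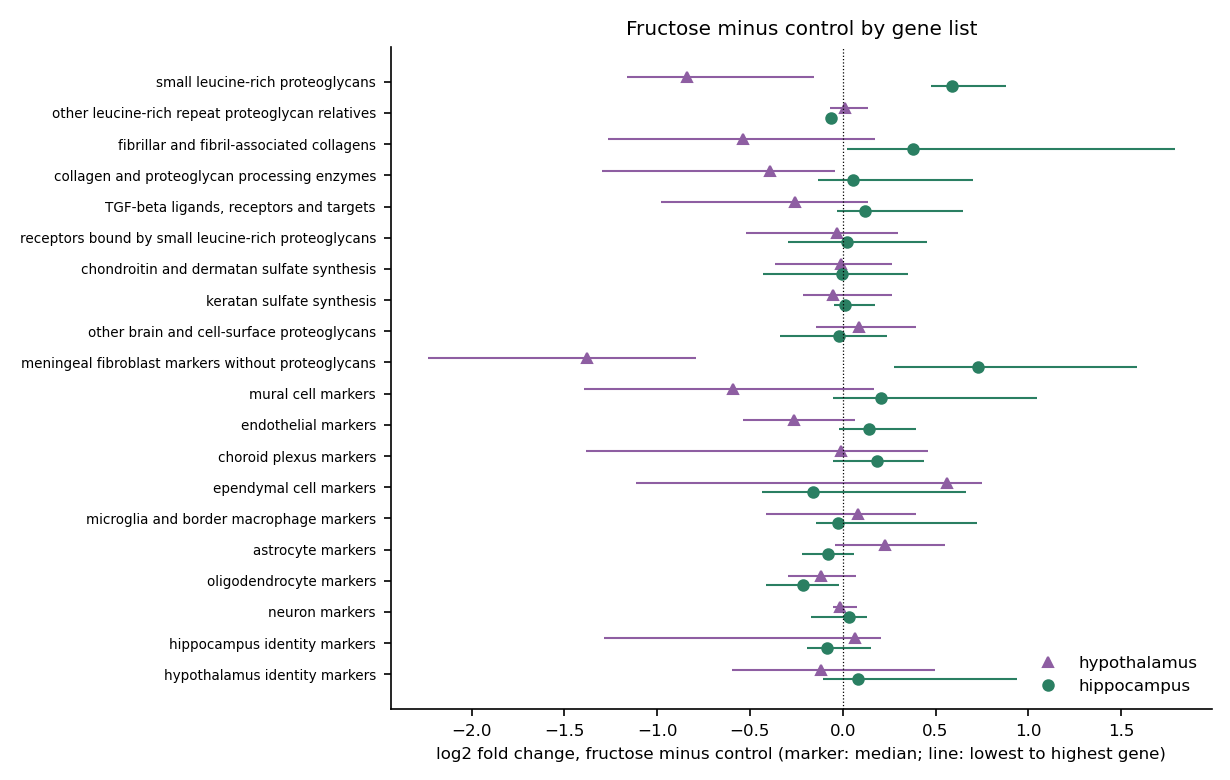
Log2 fold change of fructose over control for each gene list, with the median as a marker and the lowest to highest gene as a line, hypothalamus (triangles) above hippocampus (circles). The small leucine-rich proteoglycans have medians of -0.84 and 0.59 and the meningeal fibroblast markers -1.38 and 0.73. The lists of sugar chain synthesis lie near 0 in both regions.

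Among the 9930 other symbols tested in both tables, likeness to a member was measured as the mean absolute difference of standardised log2(FPKM + 1) over the libraries, taking the larger of the 2 tables. The median over all symbols was 1.31 for Bgn. Closest to Bgn were Clec10a (0.166), Gpr81 (0.169), LOC686539 (0.182), Gjb2 (0.187) and F13a1 (0.193), and of the other members Dcn ranked 27, Lum 137, Fmod 238 and Prelp 362. Closest to Fmod were Tinagl1 (0.252), Adamtsl4 (0.263), Slc2a4 (0.282), Echdc3 (0.299) and Myo1c (0.299), with Bgn at rank 211. The first gene was F13a1 for Dcn (0.265), Lama1 for Lum (0.203) and St3gal1 for Prelp (0.260). This is a description of 7 hypothalamus and 8 hippocampus libraries, and the ranks change without replicate 1: Clec10a then ranked 17 for Bgn, and Tinagl1 83 for Fmod.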

How the data were processed

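Poly-A RNA libraries were sequenced on an Illumina HiSeq instrument, with CASAVA 1.8.2 for demultiplexing, per the labels' protocols. The submitters' processing notes name TopHat, TopHat2, Bowtie, Bowtie2, Cufflinks, Cuffdiff and the build rn5, with no versions. The authors deposited FPKM per locus and library, with a status flag, in 1 table per region. Every locus of the members had the status OK. A symbol with several loci was taken at the locus with the highest mean FPKM.

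The test was run on log2(FPKM + 1) for loci averaging at least 1 FPKM, by limma 3.58.1 under R 4.3.3 (moderated test, trended prior variance, group as the only term, Benjamini-Hochberg adjustment over all loci of the table). The regions were compared as an interaction over symbols tested in both tables. The design assumed 4 libraries in every group; with 15 columns, hypothalamus was fitted as 3 against 4. Errors are SD for FPKM and SE for fold changes. In data simulated on the real loci, the test recovered 45% of changes of 1 log2 unit and 85% of changes of 2 in hypothalamus, and 64% and 84% in hippocampus. In each region 100 loci were changed at each size. Recovery under Benjamini-Hochberg adjustment depends on how many loci change, and the real data had 1 called locus in hypothalamus and 0 in hippocampus. The simulated noise was independent between loci and libraries, without the replicate 1 split. The recovery is taken over loci of all spreads, so it does not give the power for the members. FPKM alone gives no depth, so no counting intervals were computed.

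The members and gene lists were chosen with earlier results of these data known. Named genes are the 8 members, up to 3 genes with the highest mean FPKM of a described list, genes that passed the test, and the closest genes by likeness. Same-numbered fructose and control libraries deviated together (correlations 0.85, 0.49 and 0.46 in hypothalamus and 0.89, 0.21, 0.48 and 0.41 in hippocampus, each above 0.1), which met the rule for taking the numbers as pairs. Over replicates 2 to 4 alone the correlations were 0.27 and 0.036 in hypothalamus, and -0.23, 0.40 and 0.088 in hippocampus. These were not all above 0.1, so the rule was met only with replicate 1 included. The main test kept group as the only term, with the replicate block as an alternative. Alternatives were other pseudocounts and filters, the replicate block, a replicate 1 term, rescaled libraries, an untrended prior, summed loci, 1 fit over both regions, symbols with a single locus, and each library left out. Plots used matplotlib 3.10.9 (Python 3.11.15).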

Additional observations from a re-analysis of the deposited data

Results flagged for a closer look

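In groups of 4 libraries, 72 sets of values were examined for a single library far from the other 3, and 7 stood out. For independent, normally distributed values about 1 in 20 sets is flagged. These sets are FPKM without a log from the same libraries, so the number flagged cannot be set against chance. For hippocampus fructose, replicate 2 had the highest Bgn value of 70.0 FPKM (others 34.0 to 40.1) and the highest Lum value of 18.8 FPKM (others 2.80 to 4.26). The same library had the highest collagen sum, 292.5 FPKM (others 68.0 to 106), and the lowest sum of oligodendrocyte markers, 1755 FPKM (others 3492 to 3820). For hippocampus control, replicate 4 had the highest Dcn value of 94.1 FPKM (others 15.4 to 28.6) and the highest sum of mural cell markers, 1721 FPKM (others 160 to 374). For hypothalamus control, replicate 4 had the highest sum of choroid plexus markers, 125 FPKM (others 45.5 to 53.2). Some flags were close to the cutoff of 0.829 for the gap to the next library over the range. They were Bgn (0.831), Dcn (0.833) and the collagen sum (0.82901).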

How the results depend on the processing

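No member passed the adjusted threshold in either region, or for the difference between regions, under any alternative run. All alternatives kept the sign of Bgn, Fmod, Dcn and Lum in each region. Prelp in hypothalamus (-0.15) turned positive with the replicate block (0.083), without both replicate 1 libraries (0.069), and without control replicate 3 (0.03), control replicate 4 (0.08) or fructose replicate 1 (0.32), and leaving out single libraries gave -0.57 to 0.32. The loci called in hypothalamus, 1 of all tested, became 0 at a mean FPKM of at least 5 and in 1 fit over both regions, and 2 with the replicate block or without both replicate 1 libraries. Leaving out single libraries gave 0 to 2 loci in hypothalamus, 0 to 1 in hippocampus and 0 to 1 symbols for the difference between regions, and the causes were not tested. The replicate block changed no call of a member. Loci at an unadjusted p under 0.05 in hypothalamus numbered 361, against 759 with the replicate block, 1077 without both replicate 1 libraries and 146 without fructose replicate 2. The split by replicate 1 and unknown depth limit what these tables can show, and the filter of 1 FPKM left out the genes near 0. With no filter, 7 members were tested in hypothalamus and 6 in hippocampus, with 0 called.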

Other observations

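Beyond the matrix genes, markers of other cell types were described in each region. Of 8 tested ependymal markers, 6 were higher in fructose than in control hypothalamus by mean log2 value (median log2 fold change 0.56). Of those 6, 4 had an unadjusted p under 0.05 in limma, and so did Rarres2 (chemerin), which was lower in fructose at -1.11. Of all loci tested in hypothalamus, 3.14% had such a p, and the count of markers is no test of the list. Astrocyte markers were positive for 6 of 7 genes in hypothalamus (median 0.23) and negative for 6 of 7 in hippocampus (median -0.08). Oligodendrocyte markers were negative for 5 of 7 genes in hypothalamus (median -0.12) and for 7 of 7 in hippocampus (median -0.21). Endothelial markers were negative for 8 of 10 genes in hypothalamus (median -0.26) and positive for 9 of 10 in hippocampus (median 0.14). Neuron markers had medians of -0.01 in hypothalamus and 0.03 in hippocampus. None of these markers passed the adjusted threshold in limma. For comparison, 48.5% of all loci tested had a negative log2 fold change in hypothalamus and 48.6% a positive one in hippocampus.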
